A study of Mus musculus with 10 samples.

Results

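The genes of the cytoplasmic ribosomal proteins were described on arrays that compared hemibrain RNA of mice with another RNA. Members were chosen by symbol alone, as genes named Rpl, Rps, Rplp or Rpsa with the S6 kinase genes left out, a rule that uses no measured value. The rule gave 79 genes, carried by 114 probes, of the 18539 genes and 27198 probes that could be named. A further 5 matching symbols had no named probe and were not analysed here.

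The samples were 10 arrays, each labelled for 1 male C57BL/6J mouse whose left hemibrain RNA was in the Cy-5 dye. The mice had been placed from 3 weeks of age, for about 20 weeks, on a diet enriched in n-3 fatty acids (FD, fish oil) or on a standard laboratory diet (SD). Their age at sampling is given as 5 months. The labels give FD as the Cy-5 RNA of all 10 arrays and a pool of SD hemibrains as the Cy-3 RNA, but the study's methods place mice of both diets in Cy-5 and a commercial mouse reference RNA in Cy-3. The diets could therefore not be assigned to arrays, and no comparison of diets was made. No ratio below is to be read as FD over SD, and which RNA was in Cy-3 was not tested. Each value below is the log2 of the Cy-5 signal over the Cy-3 signal, in which a value below 0 means a dimmer signal from the hemibrain RNA than from the Cy-3 RNA of the same array. No array had its dyes swapped, so a difference between RNAs and a difference between dyes cannot be told apart, and arrays are given by lowest, median and highest value, without a mean or SD.

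The cytoplasmic ribosome consists of a small subunit, which reads the messenger RNA, and a large subunit, which joins the amino acids. Each subunit is built from ribosomal RNA and from proteins that are mostly present in a single copy, so their genes are usually expressed in balance with each other, and they are among the most abundant messengers of most cells. Demand for them is known to be high in growing and dividing cells. Many of their messengers begin with a run of pyrimidines, the 5' terminal oligopyrimidine (TOP) tract, through which the mTOR pathway controls their translation.

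The arrays measured brain RNA in Cy-5 with some differences in quality. The share of probes that stood well above background was 49.8% to 76.9% in Cy-5 and 61.9% to 79.1% in Cy-3, with the lowest value of each dye on C10-434. All 10 neuronal markers (median ratio 5.53 over the genes), all 7 astrocyte markers (6.62) and all 6 oligodendrocyte markers (4.81) were above 0 on every array. The same held for 5 of 6 microglial, 4 of 5 endothelial, 2 of 4 choroid plexus and all 3 blood markers. Of 11 markers of dividing cells measured, 10 were below 0 on every array, with a median over the genes of -5.02, and Bub1 (median 0.14) was the exception. The 10 arrays lay on 4 slides, of which only 2 held more than 1 array.

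Because a shared start of the transcript is a feature that the choice of members did not use, the starts of 7 members are shown before their ratios. These are a gene of each subunit with the tract (Rps6 and Rpl35) and 5 genes of the paralogue pairs described further on. Each window runs from 40 bases before to 25 bases after the transcript start annotated by RefSeq (build GRCm38.p6). It is read 5' to 3' on the strand of the gene. A run matching the TOP tract is in capitals where one began within 5 bases of the start.
Rps6 (chr4:86857343-86857407, minus strand): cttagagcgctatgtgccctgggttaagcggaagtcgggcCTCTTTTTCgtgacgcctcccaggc
Rpl35 (chr2:39005107-39005171, minus strand): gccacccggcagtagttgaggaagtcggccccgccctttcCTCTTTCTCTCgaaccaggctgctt
Rps27 (chr3:90213624-90213688, minus strand): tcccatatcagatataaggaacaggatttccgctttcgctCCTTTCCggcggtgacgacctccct
Rps27l (chr9:66946046-66946110, plus strand): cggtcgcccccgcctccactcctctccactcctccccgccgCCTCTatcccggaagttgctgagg
Rpl39 (chrX:37085198-37085262, minus strand): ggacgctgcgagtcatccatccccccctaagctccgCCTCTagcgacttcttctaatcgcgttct
Rpl39l (chr16:10170188-10170252, plus strand): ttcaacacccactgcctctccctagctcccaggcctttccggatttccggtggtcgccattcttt
Rpl3l (chr17:24727786-24727850, plus strand): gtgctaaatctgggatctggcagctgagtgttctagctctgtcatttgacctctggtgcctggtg

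In Rps6, Rpl35 and Rps27 the tract started at the annotated transcript start itself. In Rps27l it began 1 base after the start. In Rpl39 it began 4 bases before the start, so most of the run lay upstream of the annotated start. In Rpl39l and Rpl3l none began within 5 bases of the start, although the Rpl39l window held such runs farther upstream. None was found near the start of Rps4x either, the general gene of another pair, whose window is not shown. A tract was defined as a C followed by at least 4 further C or T bases and beginning within 5 bases of the start. Of the 79 members, 59 had a promoter entry, with 71 starts in all. The tract was present at 30 of these 71 starts (42.3%), against 18.3% of the 32851 starts of all genes. The sequence CCGGAAG, the core recognised by ETS family factors, was searched on both strands (CTTCCGG on the other) over 250 bases before to 50 bases after each start, and occurred at 36.6% of the members' starts against 8.86% of all starts. These are matches of letters and not measured sites. The ratios differed little by tract, with a median of -1.23 over the 28 members that had one and -1.10 over the 31 that had none.

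Most ribosomal protein genes gave a lower signal from the hemibrain RNA than from the Cy-3 RNA. The median over the 79 members was -1.18, with the middle of the distribution from -1.70 to -0.66, whereas the median over all genes was 0.06. The ratio was below 0 on all 10 arrays for 61 of 79 members (77.2%), against 33.4% of all genes. Only 4 members were above 0 on all 10 arrays, against 32.6% of all genes, and 14 had values on both sides of 0. The median ratio was below -1 for 44 members (22.4% of all genes) and above 1 for 2 (23.2% of all genes). It was below 0 for 70 members (47.4% of all genes). In signal, 77 members were well above background in both dyes on all 10 arrays. The exceptions were Rpl39l, whose Cy-5 signal passed background on 5 arrays, and Rpl3l, on 9.

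**Figure D1:**
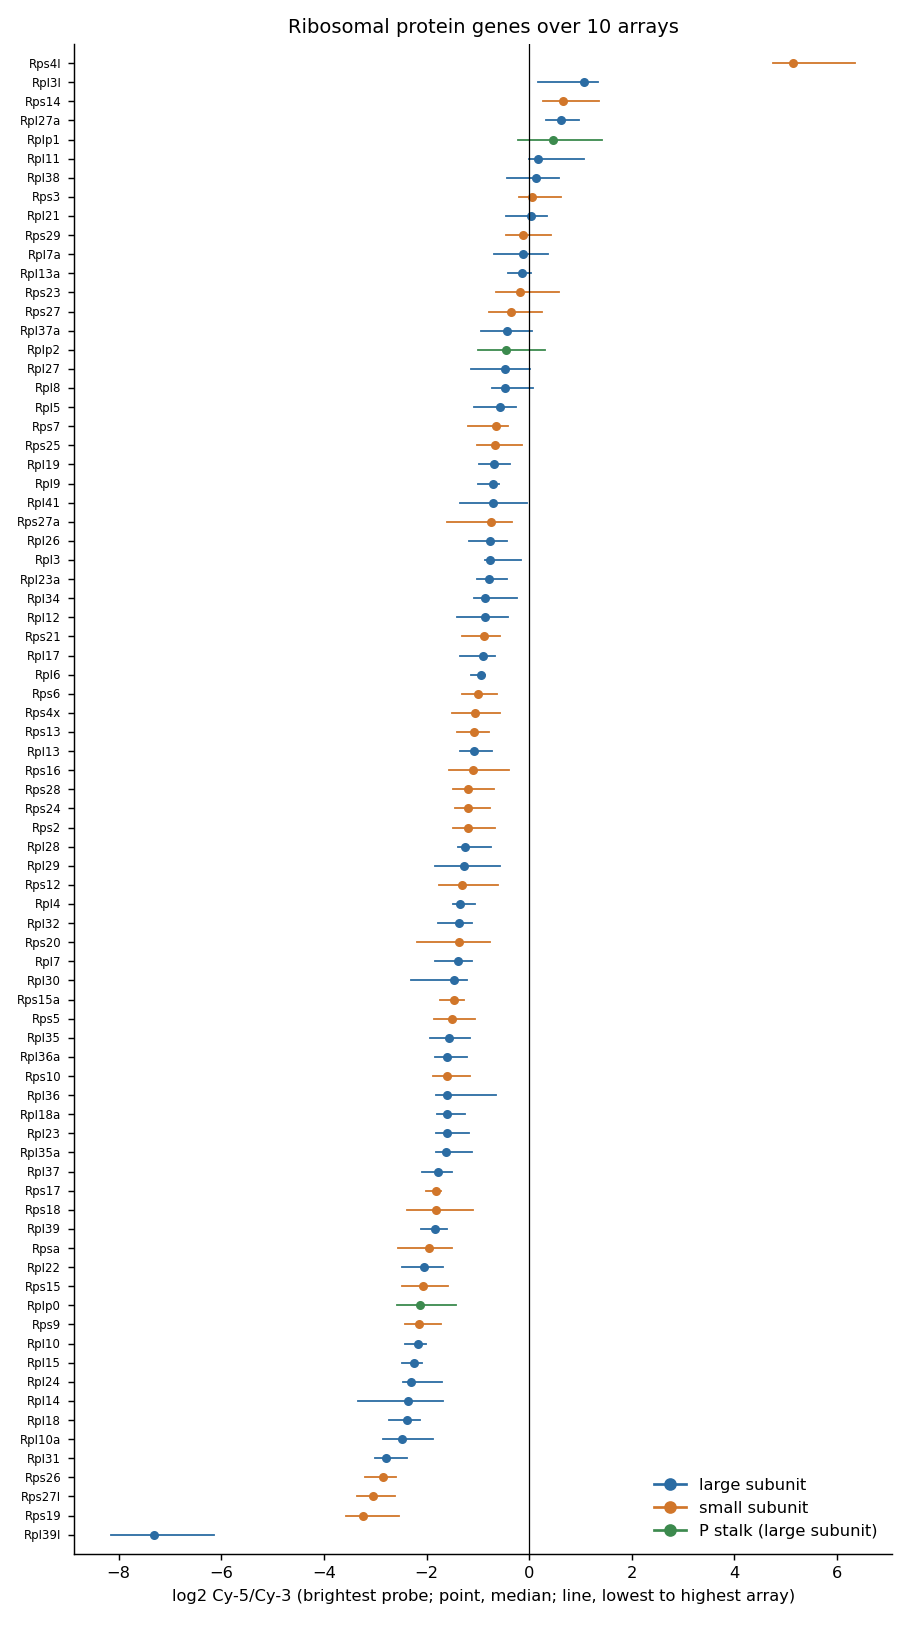
Log2 Cy-5/Cy-3 (horizontal axis) of the brightest probe of 78 of the 79 cytoplasmic ribosomal protein genes (vertical axis, ordered by median); points are medians and lines run from the lowest to the highest of the 10 arrays. 60 lines lie wholly left of 0 and 4 wholly right of it (Rps4l, Rpl3l, Rpl27a and Rps14); of these 4, Rps14 and Rpl27a fall below 0 in other processings given in the text.

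The 2 subunits had similar medians. Among the 45 large subunit genes outside the P stalk the median was -1.26, and 35 of them were below 0 on all arrays. Among the 31 small subunit genes it was -1.18, with 25 below 0 on all arrays. The array medians of the large subunit were above those of the small subunit on 5 of 10 arrays, with differences from -0.16 to 0.23. The middle array median of the large subunit less that of the small was 0.03, and it turned to -0.05 when all probes of a gene were averaged in place of the brightest.

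Rps6, the small subunit protein that is phosphorylated by S6 kinases downstream of mTOR, had ratios from -1.32 on C10-416 over a median of -0.998 to -0.63 on C10-423. Rps19, the small subunit gene most often mutated in Diamond-Blackfan anaemia, was the lowest of the members that were above background throughout, at -3.56, -3.25 and -2.53 (lowest, median and highest array). Its median corresponded to a 9.50-fold dimmer signal in Cy-5. After it came Rps27l (median -3.04), Rps26 (-2.85), Rpl31 (-2.79) and Rpl10a (-2.49), each below 0 on all 10 arrays. Rps26 and Rpl31 are further genes linked to Diamond-Blackfan anaemia. Genes linked to it were not compared as a set with the other members, so no link of the disease to low ratios can be read from them. On the brightest probe of these 5 genes even the highest array lay at -1.88 or lower, so no array was near equal signal on it. The other probe of Rpl31 had a median of -1.78 and a highest array of -1.29.

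Rpl5 and Rpl11 bind the 5S ribosomal RNA, and outside the ribosome they inhibit Mdm2 and so stabilise p53. Rpl5 ranged from -1.08 over -0.58 to -0.26 on its brighter probe. Its other probe ranged from -0.50 over -0.07 to 0.58 on the 8 arrays with a value, so it was not below 0 throughout. Rpl11 ranged from -0.0027 over 0.18 to 1.06 on C10-434, but its median was -0.95 when the software's intensity-dependent dye curve was left out, so the direction of Rpl11 depended on the processing. Rps27a is made as a fusion with ubiquitin, and its ratios were -1.60, -0.75 and -0.33. Rpsa, which is both a small subunit protein and a precursor of a laminin receptor, had ratios of -2.57, -1.96 and -1.51 on its brightest probe. Rpl10, an X-linked large subunit gene that acts late in subunit maturation, varied little, at -2.43, -2.16 and -2.01.

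The 3 P stalk proteins, which recruit elongation factors to the large subunit, differed from each other. Rplp0, the base of the stalk, ranged from -2.57 over -2.12 to -1.43. Rplp2 ranged from -0.997 over -0.46 to 0.31. Rplp1, which pairs with Rplp2, ranged from -0.21 over 0.46 to 1.41, but fell to a median of -1.09 without the dye curve. The ranges of Rplp0 and Rplp1 did not overlap on these values. In all 3 genes the brightest probe was lowest on C10-413 and highest on C10-434. The other probe of Rplp0 was also highest on C10-434 (-0.29) but lowest on C10-423 (-1.77), with -0.92 on C10-413. Rplp1 and Rplp2 were also among the 5 members with the widest spread over the arrays (1.62 and 1.31), together with Rpl14 (1.66), Rps4l (1.59) and Rps20 (1.42). Over all members the median spread was 0.79, and over all genes it was 0.97.

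The paralogues of ribosomal protein genes were at both ends of the order. Rps4l, annotated as a transcribed pseudogene related to Rps4x, was 4.76 on its lowest array, 5.14 at the median and 6.35 on C10-434, a median of 35.1-fold brighter in Cy-5. Rps4x, the X-linked gene for the small subunit protein, was below 0 on all arrays, at -1.51, -1.07 and -0.57, so the ratios of the 2 genes did not come near each other on any array. At the other end was Rpl39l, a paralogue of Rpl39 best known from the testis, at -8.15, -7.32 and -6.15. Its Cy-5 signal was above background on only 5 arrays, on which it ran from -8.15 to -6.15. Rpl39, the general gene, was at -2.11, -1.83 and -1.59 on the 9 arrays with a value.

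Rps27l, a p53-responsive paralogue of Rps27, was at -3.36, -3.04 and -2.62, and its range lay wholly under that of Rps27 (-0.79, -0.36 and 0.24). Rpl3l, the paralogue of Rpl3 that is characteristic of skeletal muscle and heart, was above 0 on all 10 arrays, at 0.17, 1.08 and 1.35, with the lowest value on C10-434, the array on which it was not above background in Cy-5. Rpl3 itself had a usable spot on 6 arrays, on which it was below 0 throughout (-0.86, -0.77 and -0.16). Rps4l and Rpl3l were thus above, and Rpl39l and Rps27l below, the general gene of their pair. These are ratios of 1 probe to itself in 2 dyes, so they do not rank the amounts of the messengers.

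The members highest in Cy-5 apart from the paralogues were close to 0, and most of them depended on the dye normalization. Rps14, a small subunit gene known from the 5q- syndrome, was above 0 on all arrays at 0.27, 0.66 and 1.36, but had a median of -0.53 without the dye curve. Rpl27a was at 0.33, 0.61 and 0.98, and remained above 0 without the curve (median 0.36), though not after an added constant of 50 (-0.03). Rpl38, which supports translation of Hox messengers in the embryo, had ratios of -0.43, 0.13 and 0.57, and a median of -1.26 without the curve. 8 members (Rpsa, Rps28, Rpl35, Rpl12, Rps4x, Rps23, Rpl38 and Rpl41) belong to gene lists that the study drew up on arrays of this series. Which of the 10 arrays were used for the lists is not known. The 8 are therefore no independent evidence of a direction. On the brightest probe, 6 of the 8 were below 0 on all 10 arrays, beside 77.2% of all members and 33.4% of all genes. The other 2 were Rpl38 and Rps23 (-0.65, -0.19 and 0.58). Among the 6, Rpsa had another probe with a median of 0.37.

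The members were among the brightest genes on the arrays, and the scanning software corrects the 2 dyes along a curve that depends on brightness. Of the 44 genes whose probe had a mean log2 brightness of 18 or more over both dyes, 28 (63.6%) were ribosomal protein genes, as were 25 of the 93 genes (26.9%) between 17 and 18. In the brightest class the median was -0.64 for members and 0.51 for the other genes. Among the 19 members between 15 and 17 it was -1.83, and among the 7 dimmer ones -2.37, against 0.24 and 0.06 for other genes. The members lay below other genes in each of the 4 classes, with the smallest gap in the brightest class.

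The members were lower still in a setting without the curve, in which background-subtracted signals were raised to a floor of 0.5 where they were under it and each array was centred on its median. The floor touched 1 of 867 spots of the members (in Rpl39l), and centring the processed signals alone gave -1.15. The member median, taken at the middle of the 10 arrays, went from -1.14 to -2.15, and 75 of 79 members were below 0 on all 10 arrays, against 31.7% of all genes. The 4 classes of brightness then had member medians of -1.88, -2.05, -2.44 and -2.43, from the brightest to the dimmest. A lower median than with the curve was found for 77 of the 79 members, a count that was not made over all genes. The members that were not below 0 on all arrays were Rps4l (median 5.06), Rpl3l (1.26), Rpl27a (0.36) and Rpl21 (-0.03). Medians of the other genes also fell without the curve where probes were bright. They went from 0.51 to -0.68 at 18 or more, from 0.81 to -0.08 between 17 and 18, and from 0.24 to -0.08 between 15 and 17. Below 15 they were 0.06 and 0.08. The direction of the group was therefore the same in both processings, while its size was not. A fall without the curve was not particular to the members.

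**Figure D2:**
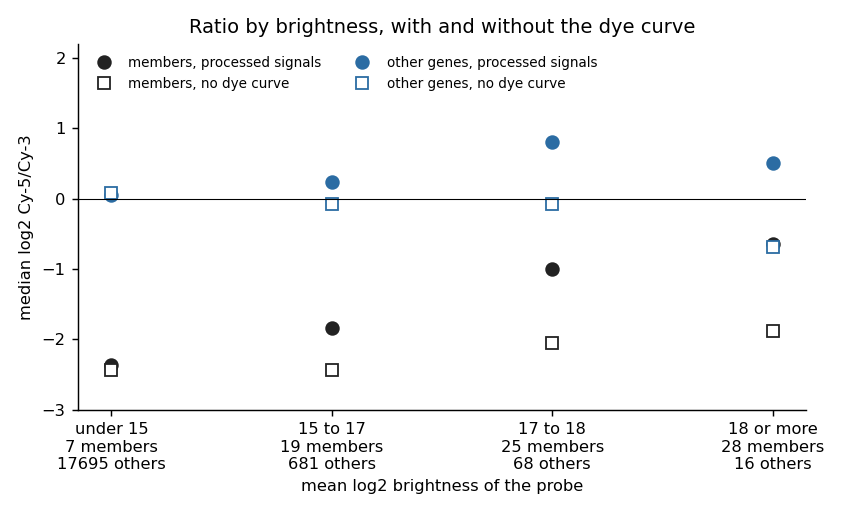
Median log2 Cy-5/Cy-3 (vertical axis) in 4 classes of mean log2 probe brightness (horizontal axis) for the ribosomal protein genes (black) and all other named genes (blue), from the processed signals (filled circles) and without the dye curve (open squares). At 18 or more the member median is -0.64 with the curve and -1.88 without it, and that of the other genes 0.51 and -0.68. Below 15 the member values are -2.37 and -2.43.

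For 29 members more than 1 probe was available, at most 4 (Rpl29), and the probes of a gene did not always give the same ratio. The difference between the highest and lowest probe median was 0.91 at the median over these 29 genes, and exceeded 1 in 12. It was not computed for genes outside the members, so whether such differences are usual on these arrays is not known. The widest difference was in Rps15a, a small subunit gene. Its brighter probe gave -1.73, -1.46 and -1.27 and its other probe 3.03, 3.28 and 3.70, both above background on all 10 arrays. The ranges were far apart, and the gene's direction rests on which probe is read. Rpsa gave medians of -1.96 and 0.37, and Rps3, a small subunit protein that also acts in DNA repair, 0.05 and -2.06.

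In the other 9 of these 12 genes the probe medians had the same sign. Among them was Rpl39l, whose dimmer probe was above background in Cy-5 on none of the arrays, so its difference has no measured size. The others differed by 1.01 (Rpl31) to 1.61 (Rpl22). In Rpl21, where both were above 0 (0.03 and 1.17), the brighter probe was at -0.03 without the dye curve. The 2 probes of Rpl22 gave -2.06 and -0.45, those of Rpl37 -1.78 and -0.28 and those of Rpl34 -0.85 and -1.90. The 3 probes of Rpl7 and the 4 of Rpl29 all had medians below 0. In all, 92 of the 114 member probes were below 0 on all arrays on which they had a value and 6 were above 0 on all, against 35.2% and 30.5% of all named probes. What each probe of a gene is targeted to was not examined.

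**Figure D3:**
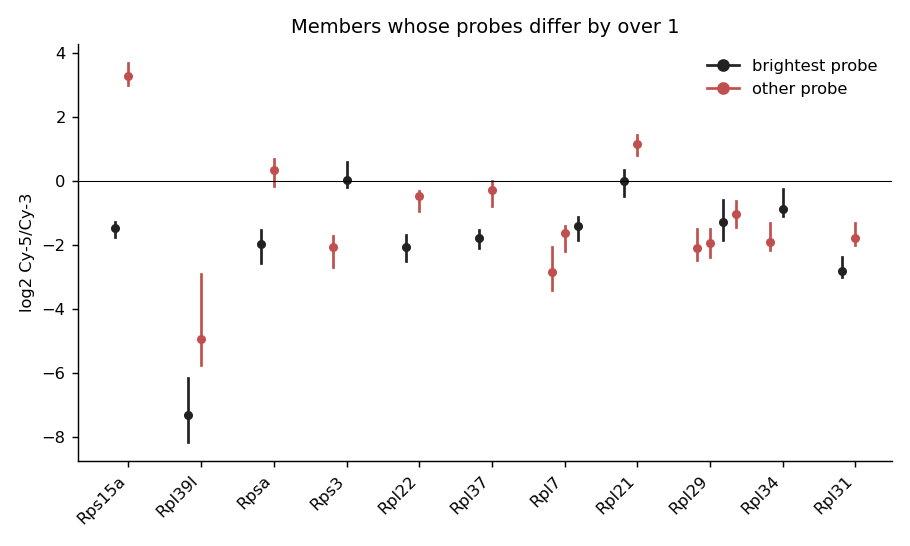
Log2 Cy-5/Cy-3 (vertical axis) of each probe of 11 of the 12 members whose probe medians differ by over 1; points are medians over the 10 arrays, lines run from the lowest to the highest array, and the brightest probe of each gene is black. In Rps15a the probes lie at -1.46 and 3.28, and Rpsa and Rps3 also have probes on both sides of 0.

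The level of the members also varied from array to array. The median over the members ran from -1.39 on C10-416 and -1.31 on C10-413 to -0.91 on C10-434 and -0.82 on C10-435, with the other 6 arrays between -1.22 and -1.11. When each gene's own median was subtracted, the median of the members ran from -0.18 (C10-416) to 0.22 (C10-435), a range of 0.39. The range over all genes (0.09) is held small by the normalization, which sets each array's ratios around 0. Other lists of translation genes ranged from 0.12 (initiation factors) and 0.15 (ribosome biogenesis) over 0.38 (mitochondrial ribosomal proteins) to 0.49 (elongation factors) and 0.50 (genes close to the members), so a range of this size was not particular to the members. On C10-435, 67 of 78 members were above their own median (85.9%, against 56.0% of all genes), and on C10-416 only 14 of 79 were (17.7%, against 45.8%). Large and small subunit genes did the same, with 36 of 44 and 28 of 31 above their median on C10-435.

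The size of this shift depended on how the dyes were normalized. A loess curve fitted again within each array reduced the range from 0.39 to 0.24, leaving out the dye curve raised it to 0.79, and a normal-exponential background correction raised it to 1.76 and made C10-413 the highest array. C10-435 was the highest array after the loess, without the curve and with an added constant of 50, and the lowest was C10-416, C10-425 and C10-434 in these settings. The value of C10-434 turned from 0.17 to -0.78 with the added constant, and was 0.0049 without the curve. On C10-434, where 60 of 78 members were above their own median (76.9%, against 50.4% of all genes), the share of probes above background in Cy-5 was the lowest of all arrays, and the part of this in the shift was not tested. Since the diet of each array is not known, these shifts cannot be set against it.

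**Figure D4:**
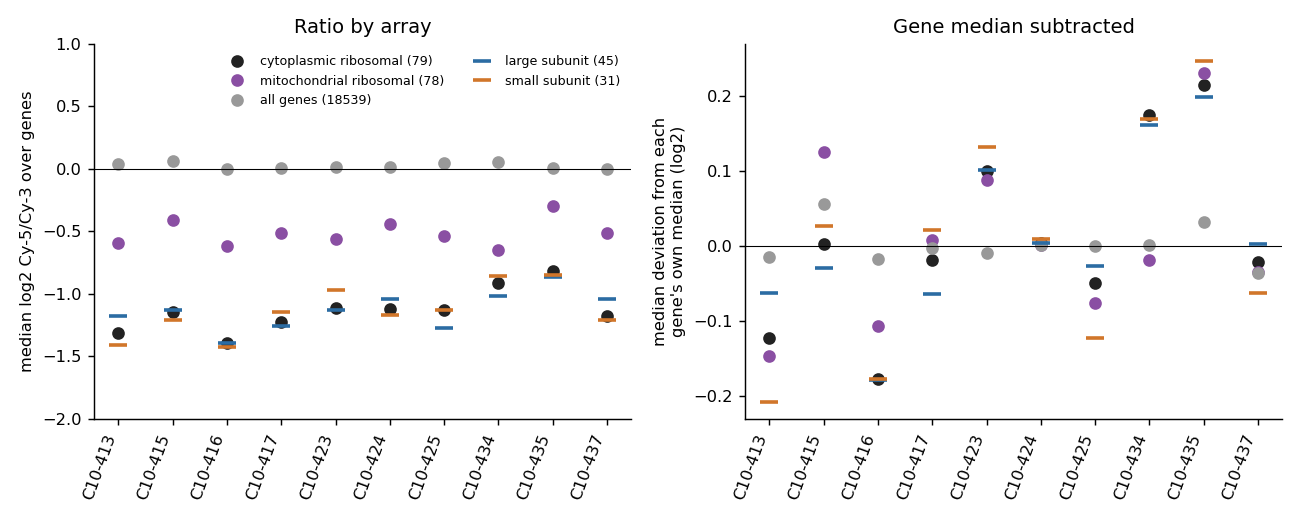
Median over genes on each of the 10 arrays (horizontal axis) of the log2 Cy-5/Cy-3 ratio (left) and of its deviation from each gene's own median (right), for cytoplasmic and mitochondrial ribosomal protein genes, the large and small subunit and all genes. At right the cytoplasmic members run from -0.18 on C10-416 to 0.22 on C10-435, and all genes, centred by the normalization, stay within a range of 0.09.

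Slides 2 and 3 held 4 arrays each and were compared as technical batches, although slide and animal cannot be told apart. With limma's moderated test over 40299 probes, 30 (0.0744%) had an adjusted p under 0.05, and none of the 109 member probes tested did. In simulated data with 200 probes shifted by 1.5, the same test called 45% of the shifted probes. The absence of called member probes therefore does not show that the slides were alike. At an unadjusted p under 0.05 there were 3 member probes, against 10.0% of all probes. These were the probe of Rpl41, the smallest ribosomal protein (0.64 higher on slide 3, SE 0.20, limma adjusted p = 0.299), that of Rpl8 (0.41 higher, limma adjusted p = 0.429) and 1 of the 2 probes of Rps28 (0.41 higher, limma adjusted p = 0.456). Of the 109 probes 73 (67.0%) were higher on slide 3, against 53.2% of all probes. Their median difference was 0.11, against 0.02 over all probes, and it fell to 0.049 without C10-416 and 0.047 without C10-435, and was 0.16 without C10-425.

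Genes that act with the ribosome were mostly, but not uniformly, on the same side of 0. Of 8 genes close to the members, 6 were below 0 on all arrays, with a median over the genes of -0.75. Among them Rps3a1, a small subunit protein whose symbol the rule did not match, had a median of -1.72, Rack1, a scaffold on the small subunit, -1.64 and Fau, which encodes Rps30 fused to a ubiquitin-like protein, -0.69. Rsl24d1, a biogenesis factor of the large subunit, was above 0 on all arrays (median 0.42). Of 27 ribosome biogenesis genes measured, 25 were below 0 on all arrays, with a median of -1.21. They included Npm1 (-2.18) and Ncl (-1.23), nucleolar proteins, and Dkc1 (-2.17), the pseudouridine synthase of ribosomal RNA. Ubtf, the factor that binds ribosomal DNA for RNA polymerase I, was above 0 on all arrays (0.89).

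Mitochondrial ribosomal protein genes, which encode the proteins of the separate ribosome inside mitochondria, were nearer to 0 than the cytoplasmic ones. Of 78 such genes 41 were below 0 on all arrays and 8 above it, with a median of -0.51. Relative to their own medians, they too were highest on C10-435, with 65 of 76 above their own median. They differed from the cytoplasmic members on C10-434, where 32 of 78 (41.0%) were above their median against 60 of 78 members, and 50.4% of all genes. The medians of the cytoplasmic and mitochondrial ribosomal, biogenesis and near-member lists stayed below 0 under each other processing tried.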

How the data were processed

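RNA of 10 mouse hemibrains had been hybridised to 2-colour Agilent 4x44k arrays. The authors deposited the scanner output of each array, made with Feature Extraction (version 10.10.1.1), in which the signals are linear intensities after background subtraction and linear and lowess dye normalization, and the log ratio of each spot is a log10 of Cy-5 over Cy-3. The deposited series table held log2 ratios that matched these (Pearson's r of 0.997 or more over probes, array by array).

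From the processed intensities, log2 Cy-5/Cy-3 was computed, control and outlier-flagged spots were left out, and spots of a probe were averaged. A probe was well above background when at least 0.5 of its spots were flagged so. Accessions were named through RefSeq (GRCm38.p6, names and promoter windows), with 27198 of 41174 probes (66.1%) matched, and each gene was read from its brightest probe. The named members were the P stalk, paralogue and disease genes, those on lists drawn up by the study, the 5 highest, 5 lowest and 5 widest, those whose probes differed by over 1, and the 3 probes with the smallest p between slides. Members and lists were chosen with earlier results of these data known. Slides were compared with limma 3.58.1 (R 4.3.3) and Benjamini-Hochberg adjustment, checked on simulated data. The other software was Python 3.11.15, pandas 2.3.3 and numpy 2.4.6. Alternatives were a further loess (span 0.3), median centring, background subtraction with a floor of 0.5 with and without an offset of 50, normexp with the same offset on the median signals, the deposited table, the mean of all probes, bright probes alone and leaving out each array. The number of arrays limits the precision. 1 member entered all counts but is not reported here by itself. No array was assigned to a diet, and the diets were not compared.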

Additional observations from a re-analysis of the deposited data

Results flagged for a closer look

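For each of 44 measures (the members named and the medians of the members and subunits), the array farthest from the rest was set against Dixon's critical value for 10 values, which chance passes in about 1 of 20 measures. That rate does not hold strictly here, because some of the members named were picked as the highest, lowest or widest on these same values. 5 measures passed, and in each the array was C10-434. Rps4l was 6.35 there, against 4.76 to 5.46 on the other 9 arrays. Rpl11 was 1.06, against -0.0027 to 0.28. Rps3 was 0.61, against -0.19 to 0.17, and Rplp0 was -1.43, against -2.57 to -1.98. Rpl3l was 0.17, against 0.79 to 1.35. On the same array the Cy-5 signal passed background for 49.8% of probes, whereas the other arrays had 68.2% to 76.9%, and the median background-subtracted Cy-5 intensity was 28.5, the next lowest being 60.0. Whether the dim Cy-5 signal bears on these 5 values was not tested.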

How the results depend on the processing

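No paired analysis was possible because no array was assigned to a group. The median of the members stayed below 0 under each alternative. It was -2.65 after background subtraction with an offset of 50, -1.56 with normexp, and -2.15 with no offset, the last an alternative chosen after seeing the data. Members below 0 on all arrays numbered 39 with normexp (49.4%, against 29.2% of all genes). In the main setting they numbered 61 (77.2%, against 33.4%). Members above 0 on all arrays numbered 2 with the offset, as did 4402 of all 18539 genes. The large minus small difference was 0.20 with the offset, 0.21 with normexp and -0.053 with the mean of all probes. The range of the member median over arrays was 0.57, and 1.84, 1.88 and 0.81 with the offset, normexp and no offset. With gene medians subtracted it was 0.24 after loess, 1.69 with the offset, 1.76 with normexp and 0.79 with no offset. With the offset the medians of 7 genes turned below 0, namely Rplp1 (-1.39), Rpl11 (-1.43), Rpl38 (-1.62), Rps14 (-0.95), Rpl27a (-0.029), Rpl21 (-0.39) and Rps3 (-1.53). Normexp turned 4 of them, Rplp1 (-0.24), Rpl11 (-0.31), Rpl38 (-0.46) and Rps3 (-0.49). With no offset Rplp1 (-1.09), Rpl11 (-0.95), Rpl38 (-1.26), Rps14 (-0.53), Rpl21 (-0.032) and Rps3 (-1.16) turned. The mean of all probes gave Rps15a 0.83 and Rps3 -1.02. The cause of these changes was not tested. Leaving out 1 array gave medians of -1.15 to -1.13, with 61 to 65 members below 0 on all arrays. The 65 were found without C10-434 (82.3%, against 34.5% of all genes). Probes called between slides 2 and 3 were 68 among those whose Cy-5 signal passed background and 0 to 18 without 1 array, against 30, and no member probe was called in any of these. Dim signal limits only Rpl39l and Rpl3l among the members.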

Other observations

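The remaining translation genes did not form 1 pattern. Of 52 genes of initiation factors and their regulators, 34 were below 0 on all 10 arrays and 8 above it (33.4% and 32.6% of all genes), with a median over the genes of -0.63. Eif4ebp1, the repressor of cap-dependent translation controlled by mTOR, was lowest (median -5.24, highest array -4.92), followed by Eif3e (-2.74), a subunit of the large initiation complex. Eif4a2 (1.20) and Eif4g3 (2.12) were above 0 on all arrays. Of 7 genes of elongation factors and the kinase Eef2k, 5 were below 0 on all arrays (2 with normexp). Among these 5 were Eef2k (median -0.43) and Eef1a1 (median -0.69), the general form of its factor. Eef1a2, the form of neurons and muscle, was at 4.54, 5.06 and 6.40 (lowest, median and highest array), so the ranges of the 2 forms did not overlap.

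The 10 S6 kinase genes, which the choice of members left out, had a median over the genes of 0.17 (-0.06 with an offset of 50), with 2 genes below and 4 above 0 on all arrays. Rps6kl1 was highest (5.97), then Rps6ka2 (2.34). Rps6ka3 was lowest (-1.88). Rps6kb1, the main S6 kinase of the mTOR pathway, had values on both sides of 0, from -0.73 over -0.12 to 0.20, whereas its substrate gene Rps6 was below 0 on all arrays.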
